A study of Rattus norvegicus with 12 samples.

Results

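Transcript levels of 10 genes of the Hippo pathway were followed in rat cardiac progenitor cells that were kept in suspension or had been plated on different surfaces. The genes were Yap1 and Wwtr1, which encode the co-activators YAP and TAZ, the DNA-binding partners Tead1 and Tead3, the TEAD cofactor Vgll4, the kinases Lats1, Stk3 and Stk4, and the scaffolds Sav1 and Nf2. They were chosen by name, through their Entrez identifiers, with earlier results of these data known. They are 10 of the 16924 genes counted in every library. The study compared 4 groups of 3 libraries each: cells on dishes coated with fibronectin, cells on dishes coated with laminin, cells on dishes with no coating, and cells in suspension. The cells of all groups descend from a single clone, carry no labelled mutation or drug treatment, and were taken at low density, 2 h after plating, with 0.1% fetal bovine serum in the medium. The labels attach that plating protocol to the suspension libraries as well and do not say how those cells were held. Each library has a batch, 1 to 3, that equals its replicate number, so every batch holds 1 library of each group. The labels do not say what a batch is, so a p-value measures variation between batches of 1 cell line and not between animals. The series title names YAP and the question of how the matrix instructs progenitor fate.

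In the Hippo pathway, the Mst kinases encoded by Stk3 and Stk4, bound to the scaffold Sav1, phosphorylate and activate the Lats kinases, and the membrane-associated scaffold merlin, encoded by Nf2, promotes this step. Active Lats kinases phosphorylate YAP and TAZ, which are then held in the cytoplasm or degraded. Unphosphorylated YAP and TAZ enter the nucleus and bind TEAD factors to switch on target genes, and Vgll4 competes with them for TEAD. In the heart, YAP promotes growth of cardiomyocytes before birth, and in many cultured cells attachment, spreading and matrix stiffness move YAP and TAZ into the nucleus. Much of this control acts on protein phosphorylation and location, which transcript counts do not measure.

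Total counts per library ranged from 15875160 in no coating 2 to 20852160 in laminin 2. Each of the 10 genes had between 227 and 3118 counts in any library, and all 10 passed the filter on low counts. The mesenchymal filament gene Vim averaged 5125 CPM, a count scaled to a common library total, over the 12 libraries and the cardiac factor Gata4 88.4 CPM, whereas the mesenchymal marker Dcn had 0 counts and Thy1 had 18 in all. Of the other progenitor markers, Tbx18 averaged 55.4 CPM, the receptor Kit stood at 3.09 CPM, and Tcf21 and Abcg2 had 0 counts. The 5 progenitor markers summed to 144 to 157 CPM in plated libraries and 135 to 143 CPM in suspension. Among marker lists of other cell types, all 6 blood markers were in the files, summed to 50.7 to 65.4 CPM in plated libraries and 35.8 to 38.4 CPM in suspension, and came mostly from Cd14, while the pan-leukocyte gene Ptprc had 3 counts in all. The 6 cardiomyocyte markers summed to 4.49 to 6.70 CPM in plated libraries and 2.00 to 2.78 CPM in suspension, with Nkx2-5 and Myh7 at 0 counts. The 4 epithelial markers summed to 317 to 439 CPM in plated libraries and 302 to 309 CPM in suspension, almost all from Krt8, with Epcam at 0 counts. The 5 endothelial markers in the files summed to 2.07 to 2.92 CPM in plated libraries and 1.57 to 1.89 CPM in suspension, and the sums of the smooth muscle and mesenchymal lists overlapped. The part of these markers in the differences between plated and suspended cells was not tested.

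In the fit without a batch term, Vgll4, Lats1 and Stk4 passed the test of plated against suspended cells on 1 or more surfaces, each lower in plated cells. On fibronectin only Vgll4 passed, on laminin Vgll4, Lats1 and Stk4 passed, and on uncoated dishes no gene of the 10 passed. None of the 10 was called higher, where 6.61%, 12.1% and 8.48% of all genes were called higher on fibronectin, laminin and no coating. These counts of 1, 3 and 0 genes stand beside 3.06%, 6.96% and 4.10% of the 10020 tested genes called lower on fibronectin, laminin and no coating (edgeR quasi-likelihood test, Benjamini-Hochberg adjusted p below 0.05). In the fit that keeps the batch as a block, 3, 7 and 5 of the 10 genes were lower on fibronectin, laminin and no coating, against 12.1%, 20.8% and 18.7% of all genes. The 3 comparisons share the same suspension libraries and are not independent of each other. In bulk RNA, fewer cells that carry a transcript and less of it per cell cannot be told apart.

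The 10 genes' median log2 fold change was -0.25 on fibronectin, -0.32 on laminin and -0.32 on no coating, each over suspension, while the median over all tested genes was 0.00, -0.01 and 0.00. In each comparison 9 of the 10 had a negative log2 fold change, against 49.9%, 51.1% and 49.7% of all tested genes. All 3 plated libraries lay below all 3 suspension libraries for 7 genes on fibronectin, 7 on laminin and 8 on no coating, where 24.1%, 23.0% and 23.5% of all genes did so. Against all 9 plated libraries together, 7 genes did not overlap with suspension, and 16.7% of all genes were lower without overlap. The 7 were Yap1, Wwtr1, Tead1, Vgll4, Lats1, Stk3 and Stk4. Tead3, Sav1 and Nf2 were the genes that overlapped.

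**Figure D1:**
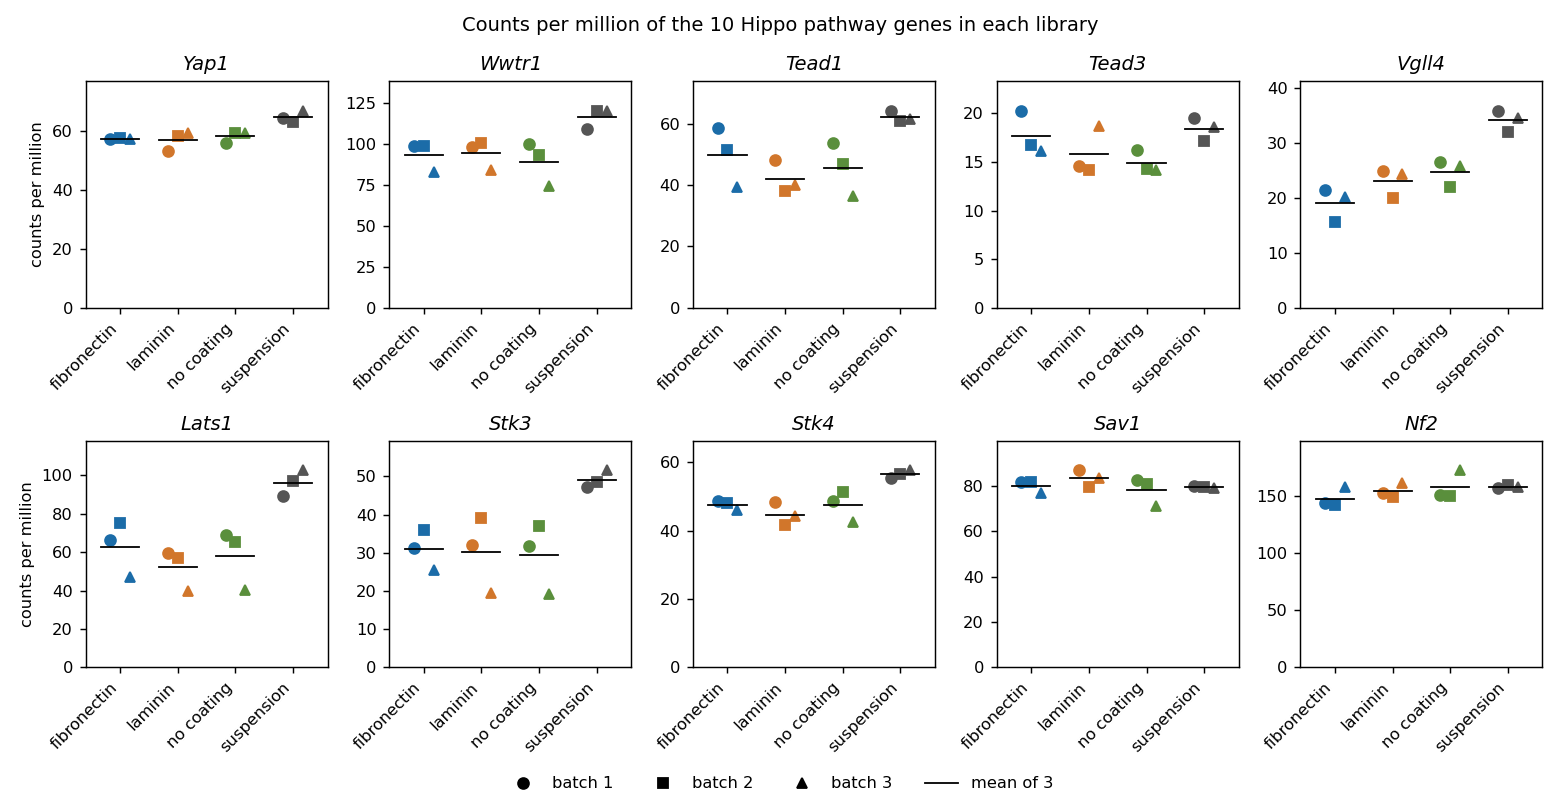
CPM of the 10 genes in each of the 12 libraries, 1 panel per gene, grouped as fibronectin, laminin, no coating and suspension. Symbols mark batches 1 to 3 and lines the mean of 3 libraries. Suspension lies above all plated libraries for Yap1, Wwtr1, Tead1, Vgll4, Lats1, Stk3 and Stk4, and the libraries of batch 3 lie lowest among plated cells for Lats1 and Stk3.

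Promoter sequences are shown for the named co-activator Yap1 and for Vgll4, the gene of the 10 with the smallest p, because both windows contain the core letters that TEAD factors bind. The windows run from 250 bases before to 50 bases after the RefSeq start in assembly GRCr8, which is not the build of the counts, and were searched for GGAATG and its reverse complement CATTCC. Capitals mark the matches, and each window reads 5′ to 3′ on the strand of the gene. The Yap1 window lies at chr8:13451388-13451687 on the minus strand. The Vgll4 window, the second of 3 listed for that gene, lies at chr4:149710165-149710464 on the minus strand.
Yap1: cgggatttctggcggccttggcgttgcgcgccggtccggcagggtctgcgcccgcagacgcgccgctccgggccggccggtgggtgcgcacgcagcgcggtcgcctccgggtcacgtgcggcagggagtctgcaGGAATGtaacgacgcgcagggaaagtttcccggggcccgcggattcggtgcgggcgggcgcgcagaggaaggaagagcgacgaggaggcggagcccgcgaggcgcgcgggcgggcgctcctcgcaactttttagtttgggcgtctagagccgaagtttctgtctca
Vgll4: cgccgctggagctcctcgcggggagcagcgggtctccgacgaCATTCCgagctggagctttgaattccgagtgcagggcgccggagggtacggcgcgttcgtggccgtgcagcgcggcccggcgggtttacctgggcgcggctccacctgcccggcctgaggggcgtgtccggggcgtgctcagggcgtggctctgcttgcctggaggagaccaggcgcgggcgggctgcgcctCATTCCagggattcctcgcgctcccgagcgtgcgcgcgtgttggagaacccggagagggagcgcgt
The Yap1 match begins at position -116 from the start, and the Vgll4 matches begin at -208 and -16. Of the 10 windows listed for 8 of the genes, 3 held the letters, the third being that of Sav1, a gene that did not pass any test here. Over all 33469 rat windows in the table, 14.2% held them. Tead1 and Stk3 were not searched. A match is a run of letters and not a measured binding site.

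Yap1 (Entrez 363014) encodes YAP itself. It was counted at 57.3, 57.7 and 57.2 CPM on fibronectin in batches 1 to 3, at 53.2, 58.3 and 59.2 CPM on laminin, at 55.9, 59.3 and 59.3 CPM on no coating, and at 64.3, 63.2 and 66.9 CPM in suspension. The 9 plated values lay between 53.2 and 59.3 CPM, all below the lowest suspension value. The log2 fold change over suspension was -0.14 ± 0.06 (SE) on fibronectin, -0.19 ± 0.06 on laminin and -0.14 ± 0.06 on no coating, with adjusted p of 0.191, 0.0643 and 0.165 in edgeR. With the batch as a block the laminin comparison passed, at an adjusted p of 0.0237 in edgeR. The laminin value corresponds to -12.1%, and its 95% interval on the log2 scale was -0.33 to -0.04. Over the 12 libraries the highest Yap1 value was 1.26 times the lowest, close to the 1.23 and 1.21 times of Sav1 and Nf2, whereas Stk3 spanned 2.70 times.

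Wwtr1 (Entrez 295062) encodes TAZ, the paralog of YAP. It stood at 98.7, 99.0 and 82.9 CPM on fibronectin, at 98.4, 101 and 84.3 CPM on laminin, at 100.2, 93.4 and 74.2 CPM on no coating, and at 109, 120.0 and 120.5 CPM in suspension. Every plated library lay below every suspension library, and the plated libraries of batch 3 were the lowest on each surface. Log2 fold changes were -0.28 ± 0.14, -0.30 ± 0.14 and -0.36 ± 0.14 on fibronectin, laminin and no coating, with adjusted p of 0.218, 0.146 and 0.104 in edgeR. With the block, laminin and no coating passed at adjusted p of 0.0353 and 0.019 in edgeR.

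Of the TEAD genes, Tead1 (Entrez 361630) was counted at 58.7, 51.4 and 39.3 CPM on fibronectin, at 48.3, 37.9 and 40.0 CPM on laminin, at 53.6, 46.7 and 36.3 CPM on no coating, and at 64.3, 60.8 and 61.7 CPM in suspension. Suspension values were tight and above all plated values, while each plated group spread over more than 10 CPM between its batches. The log2 fold change was -0.28 ± 0.18 on fibronectin, -0.56 ± 0.18 on laminin and -0.43 ± 0.18 on no coating, and the adjusted p of 0.337, 0.0523 and 0.137 did not pass in edgeR. With the block the laminin and no coating comparisons passed, at adjusted p of 0.00525 and 0.0164 in edgeR. Tead3 (Entrez 294299) overlapped more: it stood at 20.27, 16.7 and 16.2 CPM on fibronectin, at 14.5, 14.2 and 18.7 CPM on laminin, at 16.2, 14.3 and 14.2 CPM on no coating, and at 19.5, 17.1 and 18.5 CPM in suspension. Only the uncoated dishes lay wholly below suspension for Tead3, and its log2 fold changes of -0.02 ± 0.13, -0.22 ± 0.13 and -0.28 ± 0.13 on fibronectin, laminin and no coating did not pass with or without the block.

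Vgll4 (Entrez 297523), the cofactor that competes with YAP and TAZ for TEAD, had the smallest adjusted p of the 10 genes. It was counted at 21.5, 15.6 and 20.1 CPM on fibronectin, at 24.9, 20.0 and 24.4 CPM on laminin, at 26.5, 22.0 and 25.8 CPM on no coating, and at 35.9, 32.0 and 34.6 CPM in suspension. The 9 plated values all lay below the 3 suspension values, and in each group batch 2 was the lowest. Vgll4 fell by 0.80 ± 0.13 on the log2 scale on fibronectin, a loss with an adjusted p of 0.00375 in edgeR that stayed past the threshold under all 13 alternatives, with adjusted p of at most 0.024. It fell on laminin too, with a log2 fold change of -0.56 ± 0.13 and an adjusted p of 0.016 in edgeR. The laminin call was lost without suspension 3, at an adjusted p of 0.0568, and without laminin 2, at 0.0561. On no coating the log2 fold change was -0.44 ± 0.13 with an adjusted p of 0.0504 in edgeR, and 0.003 with the block.

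Lats1 (Entrez 308265), the kinase that phosphorylates YAP and TAZ, stood at 66.5, 75.0 and 46.9 CPM on fibronectin, at 59.6, 56.9 and 40.0 CPM on laminin, at 68.8, 65.4 and 40.0 CPM on no coating, and at 89.1, 96.9 and 103 CPM in suspension. Plated and suspended libraries did not overlap, and batch 3 was the lowest on all 3 surfaces but the highest in suspension. Lats1 fell on laminin, with a log2 fold change of -0.88 ± 0.24 and an adjusted p of 0.0309 in edgeR. That call was lost when any of the 3 suspension libraries, laminin 2 or laminin 3 was left out, at adjusted p of 0.0528, 0.0844 and 0.0954 without suspension 1, 2 and 3, 0.058 without laminin 2 and 0.0973 without laminin 3. On fibronectin and no coating the log2 fold changes were -0.58 ± 0.24 and -0.70 ± 0.24, with adjusted p of 0.156 and 0.0794 in edgeR. With the block they were 0.0253 and 0.01.

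Stk3 (Entrez 65189), one of the Mst kinase genes, stood at 31.3, 36.1 and 25.6 CPM on fibronectin, at 32.0, 39.1 and 19.4 CPM on laminin, at 31.8, 37.0 and 19.1 CPM on no coating, and at 47.3, 48.5 and 51.6 CPM in suspension. The pattern over batches was that of Lats1, with batch 3 lowest on each surface and highest in suspension. Log2 fold changes of -0.63 ± 0.28, -0.70 ± 0.28 and -0.72 ± 0.28 on fibronectin, laminin and no coating had adjusted p of 0.178, 0.102 and 0.111 in edgeR. All 3 passed with the block, at 0.03, 0.0125 and 0.0133. Stk4 (Entrez 311622), the other Mst kinase gene, was steadier: 48.7, 48.2 and 45.9 CPM on fibronectin, 48.4, 41.5 and 44.2 CPM on laminin, 48.6, 51.5 and 42.5 CPM on no coating, and 55.3, 56.6 and 57.7 CPM in suspension. Its libraries did not overlap between plated and suspended cells either. Stk4 fell on laminin, by a log2 fold change of -0.34 ± 0.10 with an adjusted p of 0.0378 in edgeR, while -0.21 ± 0.10 on fibronectin and -0.23 ± 0.10 on no coating did not pass. The laminin call for Stk4 was lost without any of the 3 suspension libraries, laminin 2 or laminin 3, at adjusted p between 0.0609 and 0.112 in edgeR, at 0.0618 without batch 3, and at 0.0503 with no filter on low counts.

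Neither scaffold passed on any surface, with or without the block. Sav1 (Entrez 299116), which bridges the Mst and Lats kinases, stood at 81.6, 81.8 and 76.6 CPM on fibronectin, at 86.9, 79.6 and 83.5 CPM on laminin, at 82.7, 80.8 and 70.9 CPM on no coating, and at 79.7, 79.3 and 79.0 CPM in suspension. The plated values lay on both sides of suspension, and the 95% intervals of the log2 fold changes were -0.14 to 0.24 on fibronectin, -0.12 to 0.26 on laminin and -0.19 to 0.19 on no coating. Nf2 (Entrez 25744), the gene of merlin, was counted at 143.6, 142.5 and 157.6 CPM on fibronectin, at 152, 149.5 and 162 CPM on laminin, at 151, 149.8 and 173 CPM on no coating, and at 157, 159.5 and 158 CPM in suspension. Batch 3 was the highest plated library for Nf2 on each surface, the reverse of Lats1 and Stk3. Its intervals were -0.20 to 0.08, -0.17 to 0.11 and -0.13 to 0.16 on fibronectin, laminin and no coating.

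**Figure D2:**
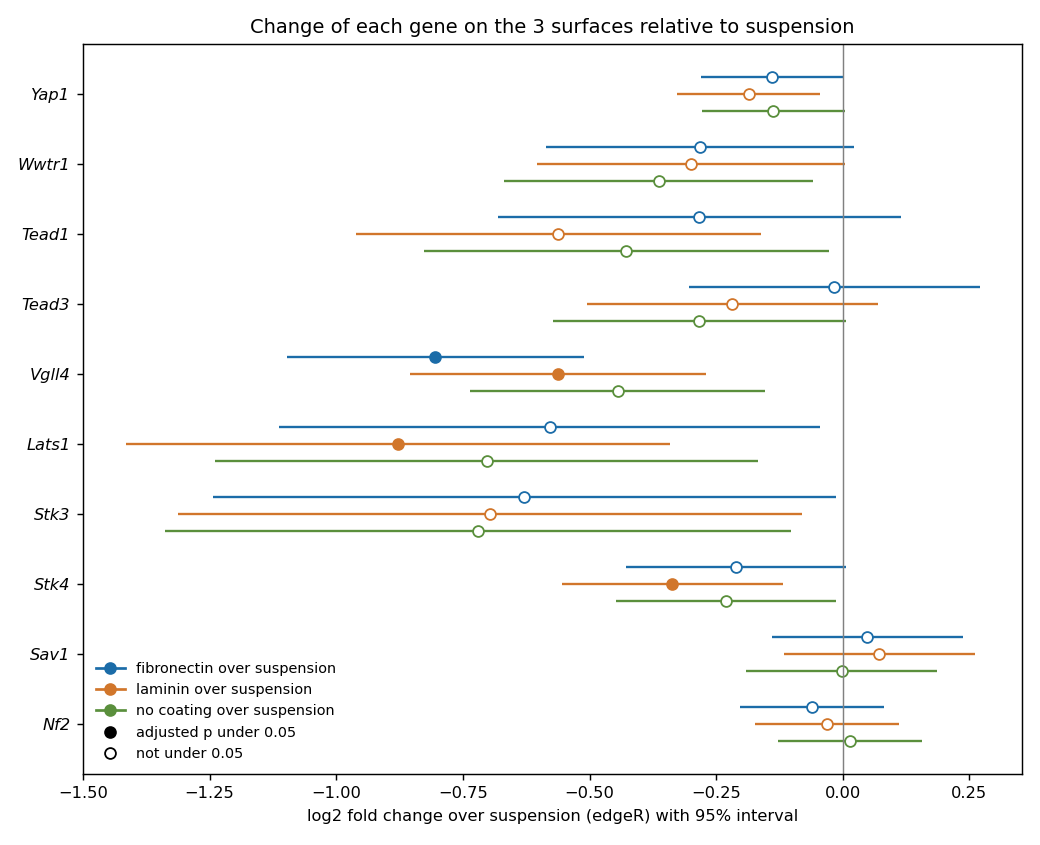
Log2 fold changes of the 10 genes over suspension on fibronectin, laminin and no coating, with 95% intervals from the edgeR fit without the block. Filled points passed an adjusted p of 0.05, namely Vgll4 on fibronectin and Vgll4, Lats1 and Stk4 on laminin, and Sav1 and Nf2 lie at the zero line.

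The mean of the 3 plated groups was also set against suspension, a comparison chosen after the values had been seen. Vgll4 fell by 0.60 ± 0.10 on the log2 scale with an adjusted p of 0.00272 in edgeR, and passed under all 18 alternatives. Lats1, with -0.72 ± 0.19, Stk3, with -0.68 ± 0.22, Stk4, with -0.26 ± 0.08, and Yap1, with -0.15 ± 0.05, also passed, at adjusted p of 0.02, 0.0419, 0.0346 and 0.049 in edgeR. These 5 of 10 genes stand beside 10.4% of all tested genes called lower. The Lats1 call was lost without suspension 2 or 3, at adjusted p of 0.0754 and 0.0887 in edgeR. The Stk3 call was lost without any of the 3 suspension libraries, fibronectin 1, fibronectin 3 or laminin 1, at up to 0.138, and the Stk4 call without any suspension library, fibronectin 2, fibronectin 3, laminin 2 or batch 3, at up to 0.129. The Yap1 call was lost in 15 of the 18 alternatives, at adjusted p of up to 0.197 in edgeR, among them every fit that left out 1 library. Wwtr1 and Tead1 had values of -0.31 ± 0.11 and -0.42 ± 0.14 and did not pass, at adjusted p of 0.0575 and 0.0513 in edgeR. With the block both passed, at 0.00981 and 0.00448.

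The size of the change on plating differed between batches for Lats1, Stk3 and Wwtr1. The mean within-batch log2 ratio of plated over suspended libraries was -0.46, -0.57 and -1.28 for Lats1 in batches 1, 2 and 3, and -0.58, -0.38 and -1.29 for Stk3. For Wwtr1 it was -0.14, -0.30 and -0.59. A plated batch 3 library thus held on average 41.1% of the suspension level of Lats1, against 72.8% in batch 1 and 67.5% in batch 2. The test of the difference itself passed for these 3 genes, with adjusted p of 0.00661 for Lats1, 0.0199 for Stk3 and 0.0257 for Wwtr1 in edgeR, and 14.3% of all tested genes were called. With 1 suspension library per batch, the spread in this test came from the plated libraries alone, so variation of a single suspension library is not in its error. Leaving out 1 plated library kept Lats1 called each time. Stk3 was lost without laminin 1, laminin 2, laminin 3 or no coating 2, at adjusted p of up to 0.0722 in edgeR, and Wwtr1 without fibronectin 2, laminin 2, laminin 3 or no coating 2, at up to 0.0678.

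For the other genes the test of a difference between batches did not pass. Vgll4 had within-batch log2 ratios of -0.57, -0.75 and -0.57 in batches 1, 2 and 3, and Yap1 of -0.21, -0.11 and -0.19. Tead1 had -0.27, -0.43 and -0.68, and Stk4 had -0.19, -0.27 and -0.39, with values in every batch below 0. Without the batch 3 libraries, 3, 4 and 2 of the 10 genes were lower on fibronectin, laminin and no coating, beside 4.95%, 10.3% and 6.81% of all genes, and 3 were lower in the mean of the plated groups, beside 12.8%. The batch 1 and 2 falls of Lats1 on fibronectin and no coating were then smaller and past the threshold, at log2 fold changes of -0.35 and -0.44 with adjusted p of 0.0468 and 0.0198 in edgeR. Those of Stk3 on fibronectin, laminin and no coating were -0.47, -0.42 and -0.45, at adjusted p of 0.0424, 0.04 and 0.0442 in edgeR.

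**Figure D3:**
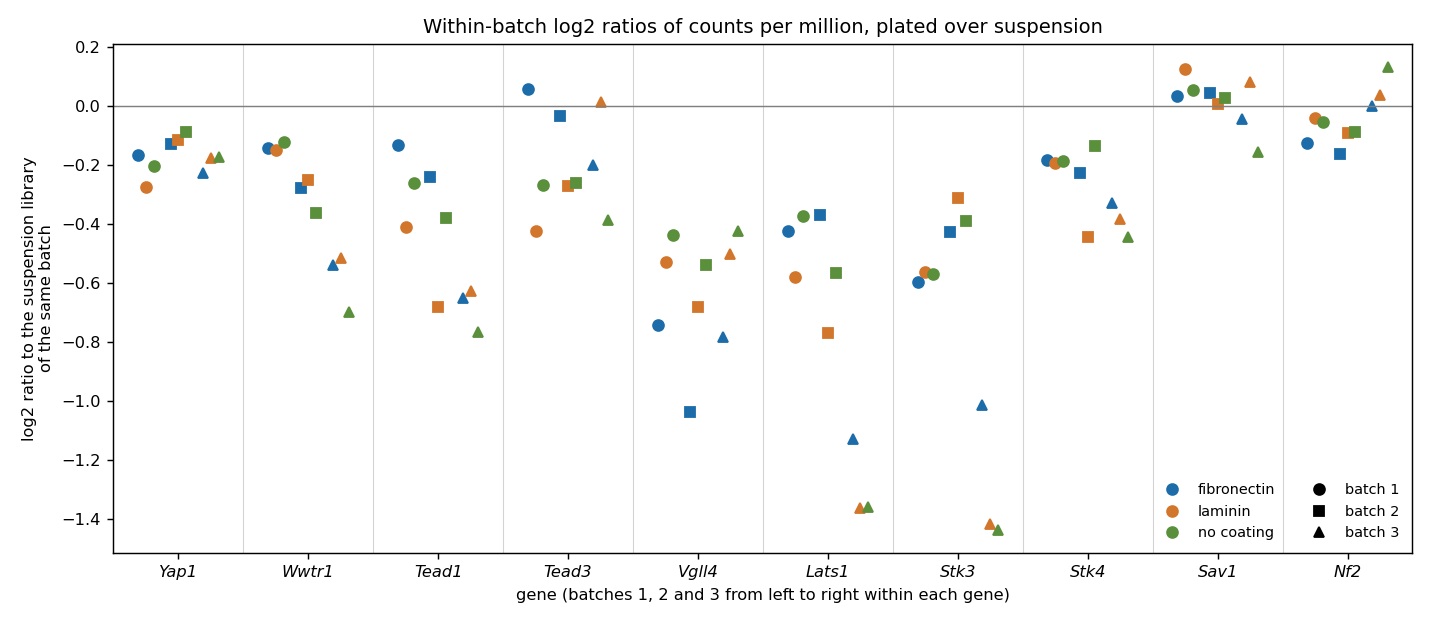
Log2 ratio of each plated library over the suspension library of its own batch, for the 10 genes, with batches 1, 2 and 3 side by side and the surfaces in separate symbols. Lats1 and Stk3 drop below -1 on each surface in batch 3, as does Vgll4 on fibronectin in batch 2. Vgll4 lies below 0 in every batch, as do Yap1, Wwtr1, Tead1, Lats1, Stk3 and Stk4. Fibronectin is lowest for Vgll4 in each batch, and Nf2 and Sav1 lie around 0.

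Between the surfaces, none of the 10 passed for fibronectin over no coating, laminin over no coating or laminin over fibronectin. Of all genes, 0.180%, 0.00% and 0.150% were called in either direction (edgeR, Benjamini-Hochberg). The block, which called 0.469%, 0.00% and 0.409% of all genes, and DESeq2 also called 0 of the 10. At an unadjusted p below 0.05 the edgeR fit without the block had 1, 0 and 0 of the 10. In that fit 3.43%, 1.56% and 2.99% of all genes were below it. With the block 1, 0 and 2 of the 10 were below it. The share of all genes is not given for the block at this threshold, so these counts cannot be set against it. The 2 for laminin over fibronectin, Vgll4 and Tead1, ranked 241 and 666 by p among the 10020 tested genes. In the fit without the block the 1 gene was Vgll4, at 19.1 ± 3.06 CPM on fibronectin and 24.8 ± 2.38 CPM on no coating (SD, n = 3 each), a log2 fold change of -0.36 ± 0.13 in edgeR. It was also the 1 gene of the 10 whose fibronectin libraries all lay below the no coating libraries, beside 3.34% of all genes. In order of mean level, Vgll4 was lowest on fibronectin, then laminin, no coating and suspension, and no neighbouring pair of surfaces passed. Within each of the 3 batches the surfaces stood in that same order.

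A p that misses the threshold does not show equal levels, and the intervals give what the data allow. For Yap1 the 95% interval of the log2 fold change ran from -0.14 to 0.14 for fibronectin over no coating and from -0.19 to 0.09 for laminin over fibronectin. Yap1 means were 57.4 ± 0.268 CPM on fibronectin, 56.9 ± 3.21 CPM on laminin, 58.2 ± 1.98 CPM on no coating and 64.8 ± 1.92 CPM in suspension (SD, n = 3 each). For Lats1 the interval was wide, from -0.41 to 0.66 for fibronectin over no coating and from -0.84 to 0.24 for laminin over fibronectin. For Stk3 it ran from -0.53 to 0.71 for fibronectin over no coating.

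A list of 65 other Hippo pathway genes was described next, of which 53 were in the files and 50 were tested. On fibronectin 3 were higher and 2 lower than in suspension, on laminin 3 higher and 6 lower, and on no coating 3 higher and 5 lower (edgeR). The share of all genes called in either direction was 9.67%, 19.0% and 12.6%. With the block the counts were 6 higher and 7 lower, 7 higher and 15 lower, and 5 higher and 13 lower, beside 28.7%, 43.2% and 38.8% of all genes. Without batch 3 they were 1 higher and 5 lower, 0 higher and 11 lower, and 1 higher and 8 lower of 49 tested. In that fit 4.95%, 10.3% and 6.81% of all genes were called lower, and the share called higher is not given. The list's median log2 fold change was 0.00, -0.07 and -0.06 on fibronectin, laminin and no coating, against 0.00, -0.01 and 0.00 over all genes. Lats2, the paralog of Lats1, averaged 126 ± 1.05 CPM on fibronectin, 90.9 ± 5.86 CPM on laminin, 107 ± 2.87 CPM on no coating and 155 ± 14.1 CPM in suspension (SD, n = 3 each). Lats2 fell on laminin and on no coating, with log2 fold changes of -0.77 ± 0.08 and -0.52 ± 0.08. Lats2 is a core kinase gene outside the 10. Its libraries ran from 124 to 126 CPM on fibronectin, 105 to 110 CPM on no coating and 85.2 to 96.9 CPM on laminin. Wwc2, a scaffold of the KIBRA family that promotes Lats activity, fell by 0.65 ± 0.10, 0.90 ± 0.10 and 0.79 ± 0.10 on the log2 scale on fibronectin, laminin and no coating. Taok3, a kinase of the TAO family, fell by 0.52 ± 0.13, 0.64 ± 0.13 and 0.51 ± 0.13.

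Ajuba, a LIM-domain protein that restrains the Lats kinases, and Amotl2, an angiomotin-family protein that binds YAP, separated the surfaces where the core genes did not. Ajuba averaged 108 ± 5.68 CPM on fibronectin, 41.8 ± 6.91 CPM on laminin, 42.1 ± 1.61 CPM on no coating and 121 ± 4.33 CPM in suspension (SD, n = 3 each). Ajuba fell on laminin and no coating, with log2 fold changes of -1.54 ± 0.11 and -1.51 ± 0.11 over suspension, and was higher on fibronectin than on no coating by 1.38 ± 0.11. Amotl2 averaged 409 ± 29.8 CPM on fibronectin, 156 ± 24.2 CPM on laminin, 167 ± 12.6 CPM on no coating and 255 ± 5.49 CPM in suspension (SD, n = 3 each). Its log2 fold change over suspension was 0.71 ± 0.10 on fibronectin, -0.71 ± 0.10 on laminin and -0.60 ± 0.10 on no coating, all past the threshold. In the fit without the block, these 2 genes were the only ones of the 50 called for fibronectin over no coating and for laminin over fibronectin, where the block also called Lats2, lower on laminin, and 0 were called for laminin over no coating. At laminin over fibronectin, Ajuba and Amotl2 stood at -1.41 ± 0.11 and -1.42 ± 0.10. The remaining genes with the smallest p were Rassf1, Rassf5, Fat1 and Limd1. Rassf1 and Rassf5, adaptors of the Mst kinases, rose on fibronectin by 0.25 ± 0.07 and 0.79 ± 0.22 on the log2 scale. The atypical cadherin Fat1 fell on laminin by 0.43 ± 0.08, and Limd1, of the Ajuba family, rose on no coating by 0.35 ± 0.07. Rassf5 averaged 17.1, 16.5 and 16.4 CPM on fibronectin, laminin and no coating and 10.2 CPM in suspension. In the same order Limd1 averaged 178, 180, 193 and 153 CPM. Rassf1 averaged 66.1, 55.7, 54.1 and 57.1 CPM, and Fat1 1076, 883, 1081 and 1190 CPM.

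A published list of 22 YAP and TAZ target genes, 17 of them tested, had 2 higher and 2 lower on fibronectin, 1 higher and 9 lower on laminin, and 1 higher and 6 lower on no coating, each over suspension in edgeR, beside 9.67%, 19.0% and 12.6% of all genes called in either direction, and it shares Lats2, Amotl2 and Ptpn14 with the pathway list. With the block the counts were 2 higher and 7 lower, 1 higher and 12 lower, and 1 higher and 12 lower, beside 28.7%, 43.2% and 38.8% of all genes. Its median log2 fold change was -0.18, -0.64 and -0.58 on fibronectin, laminin and no coating, against 0.00, -0.01 and 0.00 over all genes. Against no coating, 5 were higher on fibronectin, where 0.180% of all genes were called in either direction, among them Ccn1, Ccn2, Ankrd1 and Amotl2, with log2 fold changes of 2.82 ± 0.34, 2.15 ± 0.22, 1.99 ± 0.31 and 1.31 ± 0.10. Over the same contrast Yap1 and Wwtr1 stood at 0.00 ± 0.06 and 0.08 ± 0.14. Most of these named targets were not higher on fibronectin than in suspension. Ccn1 averaged 561 CPM on fibronectin and 529 CPM in suspension, with overlapping libraries. Ccn2 averaged 379 against 678 CPM and Ankrd1 2.55 against 10.3 CPM, both lower on fibronectin. Amotl2 went the other way, at 409 against 255 CPM. Ankrd1 had only 8 to 15 counts per library on no coating.

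**Figure D4:**
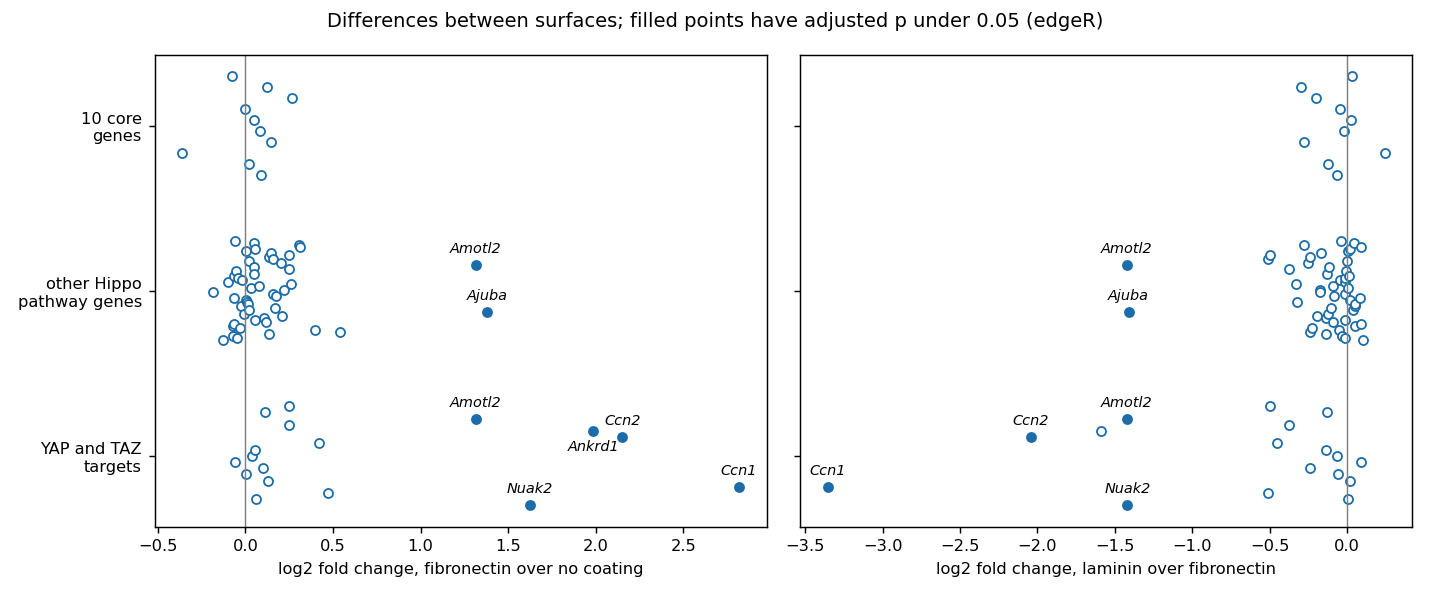
Log2 fold changes between surfaces for the 10 core genes, the other Hippo pathway genes and the YAP and TAZ targets, fibronectin over no coating at left and laminin over fibronectin at right. Filled points passed an adjusted p of 0.05 in edgeR. None of the 10 core genes is filled, and Amotl2 and Ajuba are the filled pathway genes.

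Genes whose pattern over the 12 libraries was most like that of a Hippo gene were found among 8676 tested genes by the root-mean-square difference of centred log2 CPM. For Yap1 these were Phf12, Paxip1 and Gtf3c2, at 0.0344, 0.0473 and 0.0482, where the median gene stood at 0.193. For Wwtr1 they were Purb, Inpp5f and Pkd2, at 0.0528, 0.0584 and 0.0585, with a median of 0.278. For Vgll4 they were Bcl6, Plk3 and Cyth1, at 0.13, 0.152 and 0.153, with a median of 0.382. A gene with no change at all would stand at 0.079 from Yap1, 0.208 from Wwtr1 and 0.326 from Vgll4, each below the median. Plk3, a Polo-like kinase gene, had log2 fold changes over suspension of -0.47 on fibronectin, -0.41 on laminin and -0.31 on no coating.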

How the data were processed

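RNA was extracted with TRIzol and sequenced from TruSeq stranded total RNA libraries, per the labels' protocols. The authors deposited raw read counts per gene, 1 table per library, keyed by Entrez identifier per the file headers. Per the submitters' processing notes, reads were placed on rn4. Aligner, counter and strand setting were not given in the sources used here, and reads of antisense or near-identical genes cannot be told apart. Symbols came from the rat RefSeq table (16761 of 16924 identifiers matched) and promoter windows from RefSeq, assembly GRCr8.

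Counts were tested with edgeR 4.0.16 in R 4.3.3 (glmQLFit, glmQLFTest), with TMM scaling, genes kept by filterByExpr (10020) and Benjamini-Hochberg adjustment over all of them at a threshold of 0.05. All 12 libraries entered a means model of 4 groups with 8 residual degrees of freedom. CPM values are counts over library totals, and errors of log2 fold changes are SE. Batches pair the libraries, per the labels. Deviations from group means had a median correlation of 0.409 in 18 same-batch pairs of libraries, from 0.036 to 0.853. In 36 other pairs the median was -0.124, from -0.717 to 0.346, so the ranges overlap. Centring on group means pushes the other pairs below 0 where same-batch pairs are positive, so the contrast is partly built in. A further fit holds batch as a block term (6 residual degrees of freedom). Another tests whether the change on plating differs between batches, with 4. Alternatives were the block, 2 other scalings, no filter, DESeq2 1.42.0, fits to only the groups compared, leaving out batch 3 and leaving out each library.

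The 10 genes and the gene lists were chosen with earlier results of these data known. Named list genes are the up to 6 called genes with the smallest p in a comparison, and 4 preset targets. Likeness was searched among genes with a mean log2 CPM of at least 2 (prior count 2), 3 genes being named for each of Yap1, Wwtr1 and Vgll4.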

Additional observations from a re-analysis of the deposited data

Results flagged for a closer look

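For 3 of the 10 genes the change on plating differed between the batches by a test of the difference itself (edgeR quasi-likelihood test of attachment by batch over all 12 libraries, Benjamini-Hochberg adjustment over 10020 genes). The adjusted p was 0.00661 for Lats1, 0.0199 for Stk3 and 0.0257 for Wwtr1. Of all tested genes, 14.3% were called by the same test. The batch 3 minus batch 1 difference in that log2 fold change was -0.91 for Lats1, -0.78 for Stk3 and -0.53 for Wwtr1. For Lats1 and Stk3, the plated libraries of batch 3 were the lowest on each surface while the suspension library of batch 3 was the highest of its group. Each batch holds 1 suspension library, so a shift of that library and a shift of the 3 plated libraries of its batch cannot be told apart by this test. Its 4 residual degrees of freedom come from the plated libraries alone, so the p-values do not include variation between suspension libraries of a batch.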

How the results depend on the processing

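There were 73 results for single genes and 999 alternative values. Of these values, 907 kept the call or the lack of one, 52 lost a call, 40 gained one and 0 reversed a call. The sign of a result without a call was not compared and was not always kept. For Tead3 on fibronectin the log2 fold change over suspension ran from -0.14 to 0.06 over the alternatives, with no call in any. The replicate block, with paired batches, moved the number of the 10 genes called from 1 to 3 on fibronectin, from 3 to 7 on laminin and from 0 to 5 on no coating, and changed no call between surfaces. The share of all genes called lower moved too, from 3.06% to 12.1%, from 6.96% to 20.8% and from 4.10% to 18.7%. Without batch 3 the counts were 3 on fibronectin, 2 on no coating and 3 for all plated groups against suspension, where the fit to all batches called 5. Of all genes 4.95%, 6.81% and 12.8% were then called lower, where the fit to all batches called 10.4% for all plated groups. Fitting only the 2 groups gave 2 on fibronectin. DESeq2 called 5 on laminin and 2 on no coating, and its size factors in edgeR gave 1 on no coating. The share of all genes called is not given for DESeq2, its size factors, the 2-group fits or the fits that left out 1 library. Those counts cannot be set against all genes. In edgeR without the block, 3, 6 and 6 of the 10 had an unadjusted p below 0.05 on fibronectin, laminin and no coating. Of all genes 26.9%, 35.7% and 31.9% did so. Leaving out 1 library gave 0 to 4 on laminin and 1 to 6 for all plated groups. On laminin the counts were 1, 1 and 0 without suspension 1, 2 and 3, 0 without laminin 2 and 1 without laminin 3. For the difference between batches, leaving out 1 plated library gave 1 to 3. The cause was not tested. The spread between 3 batches of 1 clone limits these tests: the biological coefficient of variation over genes was 0.152, and 0.100 with the block. Each gene had at least 227 counts in every library.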
